A study of Mus musculus with 2 samples.

Results

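Mouse embryonic limb at 15.5 days carries skin, and 9 transcription factors that build the layered epidermis are described here: Trp63, Tfap2a, Grhl1, Grhl2, Grhl3, Klf5, Klf4, Ovol1 and Zfp750. They were taken by symbol from the gene tables, and 9 of 9 had a row among 43346 mouse gene rows. The tissue was total RNA (molecules over 200 nt) of limb from B6NCrl embryos, an inbred strain, with both sexes mixed. There was 1 group of 2 biological replicates: replicate 1 pooled the limbs of 78 embryos and replicate 2 those of 62 others. The labels name no treatment and no altered allele, and they do not say whether forelimbs or hindlimbs were taken. Each library was made from 10 ng of RNA with added spike-ins. Expected counts, which are estimated reads per gene, summed to 35104685 in replicate 1 and 41757268 in replicate 2. Since both libraries share 1 condition, the results are levels, their spread between the pools, and the transcript forms behind them, with no p-value.

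The epidermis begins as a single sheet of cells under a temporary outer cover, the periderm. A basal layer then divides, cells leave it, and they pass through spinous and granular states until they form a waterproof barrier. p63, the product of Trp63, starts and maintains this programme, and mice without it lack a stratified skin. AP-2 factors and Klf5 act with it in basal and early cells, whereas the grainyhead factors, Klf4, Ovol1 and Zfp750 are known for the exit from the basal layer and the making of the barrier.

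The annotation gives several factors different coding starts, and those of Grhl2 and Klf4 are not printed here. For Trp63, Grhl1 and Tfap2a it holds messages that begin at different exons and so encode different amino ends. The coding bases of their first coding exons are printed because the shares of transcripts reported further on are shares between these starts. All are GRCm38 sequence read 5′ to 3′ on the gene's strand, and the capitals mark the start codon. Both Trp63 starts lie on the plus strand.
Trp63 long start, chr16:25684290-25684351: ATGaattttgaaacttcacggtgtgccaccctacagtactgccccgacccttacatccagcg
Trp63 short start, chr16:25802060-25802101: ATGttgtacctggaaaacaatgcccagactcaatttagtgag
Grhl1 upstream start, chr12:24572439-24572458, plus strand: ATGacacaggagtacgacaa
Grhl1 internal start, chr12:24580749-24580780, plus strand: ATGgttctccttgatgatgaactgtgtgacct
Tfap2a start of the main counted transcript, chr13:40730039-40730065, minus strand: ATGttagttcacagtttttcagctatg
Tfap2a upstream start, chr13:40733670-40733714, minus strand: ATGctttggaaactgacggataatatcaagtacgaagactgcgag

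All 9 factors were detected in both libraries. Levels are given as TPM, a transcript count scaled by length and library size so that different genes can be set side by side. Their TPM summed to 306 in each library, or 0.0322% and 0.0323% of all mouse TPM. By mean TPM, with all counted transcripts of a gene, the order was Klf5, Trp63, Grhl3, Klf4, Grhl1, Zfp750, Ovol1, Tfap2a and Grhl2. Of the 9, 7 had at least 10 TPM in both libraries, as did 59.2% of all 15571 genes with a mean of at least 1 TPM. The pools' values overlapped between neighbours in that order only for Tfap2a and Grhl2. In a bulk sample, fewer cells of a type and less RNA per cell cannot be told apart, so these are levels of the limb and not of a keratinocyte.

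**Figure D1:**
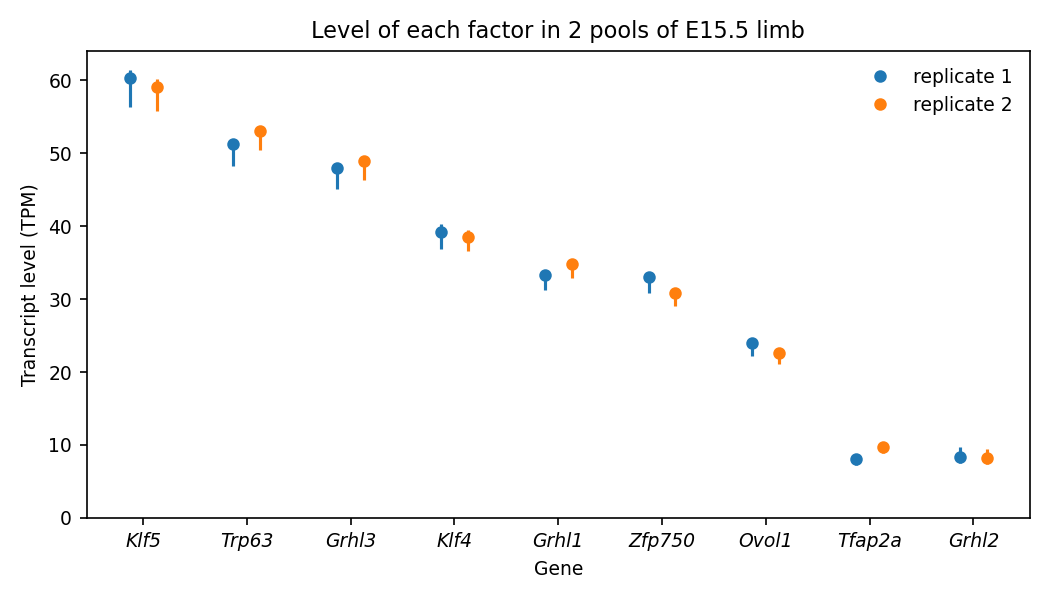
Level of each factor (TPM, linear axis) in replicate 1 (blue) and replicate 2 (orange), ordered by mean. Points are deposited TPM values and lines are the deposited intervals of the estimate, which go with a posterior mean and not with the point. The lines lie mostly below the point, except for Grhl2, where they lie mostly above it. Klf5 stands highest at 60.3 and 59.2 TPM over its counted length, and Tfap2a and Grhl2 stand lowest, between 8.11 and 9.73 TPM.

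Trp63 (ENSMUSG00000022510.10, chr16:25683763-25892102, plus strand) had 51.2 TPM in replicate 1 and 53.1 in replicate 2, from 4081 and 5194 counts. Its mean of 52.2 ± 1.34 (SD, n = 2) exceeded that of 77.1% of protein-coding genes with a mean of at least 1 TPM. The level includes 2 transcripts that run on into an intron, described further on. They had 8.31 and 2.31 TPM in replicate 1 and 8.26 and 2.12 in replicate 2. The rank of Trp63 above Grhl3 rests on counting them. The pools' values lay close together, and their deposited intervals (48.2 to 51.9 and 50.4 to 53.8 TPM) overlapped.

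Tfap2a encodes AP-2 alpha, a factor of surface ectoderm and also of neural crest cells. The gene (ENSMUSG00000021359.11, chr13:40715302-40738376, minus strand) had 8.11 TPM in replicate 1 and 9.73 in replicate 2, from 536 and 785 counts (mean 8.92 ± 1.15, SD, n = 2). Replicate 2 was the higher, and Tfap2a was the only factor whose deposited intervals did not overlap between the pools: 7.27 to 8.61 against 8.86 to 10.2 TPM. Its exons share 380 bases with the antisense gene Gm26688 (4.12 and 3.94 TPM), and 2 further antisense genes that overlap its exons were not analysed here. The counting is not stated to use strand, so reads of a gene and of its antisense partner cannot be told apart.

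The grainyhead factors bind one DNA motif as dimers. Grhl3, the member best known for the skin barrier and for wound closure, was the highest. Grhl3 (ENSMUSG00000037188.7, chr4:135541888-135573630, minus strand) had 48.0 and 48.9 TPM in replicates 1 and 2, from 2880 and 3587 counts (mean 48.5 ± 0.651, SD, n = 2). Grhl1, known for desmosomal cadherins and hair anchoring, followed. Grhl1 (ENSMUSG00000020656.11, chr12:24572283-24617391, plus strand) had 33.4 and 34.9 TPM, from 2395 and 3058 counts (mean 34.1 ± 1.06, SD, n = 2). Grhl2, a regulator of E-cadherin and claudins in simple and stratified epithelia, was the lowest of all 9 by mean TPM, with Tfap2a below it in replicate 1. Grhl2 (ENSMUSG00000022286.11, chr15:37233036-37363569, plus strand) had 8.30 and 8.14 TPM, from 738 and 900 counts (mean 8.22 ± 0.113, SD, n = 2).

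These 3 paralogues kept their order in both libraries. Grhl3 exceeded Grhl1 1.44-fold in replicate 1 and 1.40-fold in replicate 2 (mean log2 ratio 0.51 ± 0.03, SD, n = 2). Grhl1 exceeded Grhl2 by a mean of 4.11-fold (log2 of Grhl2 over Grhl1 -2.04 ± 0.06, SD, n = 2), and Grhl3 exceeded Grhl2 5.73-fold and 5.95-fold. All ratios are of TPM with 0.1 added. The low value of Grhl2 carries a limit: an antisense gene inside its locus, Gm16136, had 61.6 and 62.1 TPM and shares 169 exon bases with Grhl2. The part of such reads in the Grhl2 value was not tested.

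Klf5 and Klf4 are zinc finger factors of one family, with Klf5 known for dividing basal cells and Klf4 for suprabasal cells and the timing of the barrier. Klf5 (ENSMUSG00000005148.7, chr14:99298691-99315036, plus strand) had 60.3 and 59.2 TPM, from 2183 and 2616 counts (mean 59.7 ± 0.827, SD, n = 2). By TPM it was the highest of the 9 and lay above 79.9% of protein-coding genes with at least 1 TPM, a rank that rests on its counted length. Klf4 (ENSMUSG00000003032.8, chr4:55527143-55532466, minus strand) had 39.2 and 38.6 TPM, from 2511 and 3076 counts (mean 38.9 ± 0.460, SD, n = 2). Klf5 therefore exceeded Klf4 1.54-fold and 1.53-fold in TPM, although Klf4 had more counts in each library. The Klf5 transcript of the authors' annotation had 1721 nt and the later GENCODE M21 model has 3352 nt, while the main Klf4 transcript has 3029 nt in both. With counts not divided by length the log2 ratio of Klf5 over Klf4 was -0.22 in place of 0.62. The same Klf5 counts over the M21 length, an alternative chosen after seeing the data, gave 30.1 and 29.5 TPM, below Trp63, Grhl3, Klf4, Grhl1 and Zfp750. Reads in the added bases were not counted, so that value is a lower estimate if they exist.

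Ovol1 encodes a zinc finger repressor that helps cells stop dividing as they leave the basal layer. Ovol1 (ENSMUSG00000024922.1, chr19:5549136-5560646, minus strand) had 24.0 TPM in replicate 1 and 22.7 in replicate 2, from 1497 and 1730 counts (mean 23.3 ± 0.919, SD, n = 2). On the opposite strand 2 further genes overlap its exons by 690 and 76 bases, and they were not analysed here. Zfp750 encodes a late zinc finger factor that p63 activates and that acts with Klf4 in terminal differentiation. Zfp750 (ENSMUSG00000039238.6, chr11:121510978-121519333, minus strand) had 33.0 and 30.9 TPM, from 2308 and 2635 counts (mean 31.9 ± 1.53, SD, n = 2). It lies within the locus of Tbcd (43.7 and 42.9 TPM) on the opposite strand, with 0 exon bases shared.

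The early factor Trp63 and the late factors Klf4 and Zfp750 were in one range. With all its transcripts counted, Trp63 exceeded Zfp750 1.55-fold in replicate 1 and 1.72-fold in replicate 2. Klf4 exceeded Zfp750 by a mean of 1.22-fold (log2 0.28 ± 0.05, SD, n = 2). Grhl1 and Zfp750 were the closest pair of neighbours whose pools did not overlap, and in replicate 1 their deposited intervals did overlap (31.2 to 33.9 and 30.9 to 33.5 TPM). In replicate 1 those of Trp63 and Grhl3 overlapped too (48.2 to 51.9 and 45.2 to 48.6 TPM).

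The Trp63 message was mostly of the short form. p63 made from the upstream exon, called TA, has a transactivation domain at its amino end. p63 made from the internal exon, called ΔN, lacks it and is the form known from basal keratinocytes. Transcripts with the short start summed to 42.8 TPM in replicate 1 and 44.8 in replicate 2, and those with the long start to 8.46 and 8.37 TPM. The short share was thus 83.5% and 84.2% (mean 83.9 ± 0.538, SD, n = 2), and both pools gave nearly the same split.

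Within the short forms the alpha tail, which carries the SAM domain, led. The 2 short alpha transcripts, of 4691 and 4703 nt, have the same ends and had 17.8 and 14.7 TPM in replicate 1 and 20.5 and 13.6 in replicate 2. Their deposited intervals overlapped in each library. Together they made up 63.4% and 64.2% of Trp63. The short gamma transcript, which ends early and lacks the SAM domain, had 7.97 and 8.53 TPM, or 15.6% and 16.1%. No short beta transcript is among the 8 counted. The remaining short transcript, which runs on into an intron, had 2.31 and 2.12 TPM.

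The long share rested on 1 transcript. ENSMUST00000115307 had 8.31 and 8.26 TPM from 312 and 379 counts, which was nearly all of the long form. It is 1782 nt long in 4 exons and ends at chr16:25821318, and its last exon runs past a splice site into the next intron. Of its bases, 849 are shared with other long forms only, 255 with short forms, and 678 with no other counted transcript. The other 3 long transcripts were at or near 0, and long beta had 0.150 and 0.110 TPM from 17.0 and 16 counts. Long alpha and long gamma had 0 counts. Their deposited upper bounds were 0.150 and 0.108 TPM for alpha and 0.141 and 0.110 for gamma. Neither has bases of its own among the counted transcripts, so a 0 also depends on how shared reads were assigned. The tables hold no read positions, so reads of the long exons and reads of unspliced RNA in the intron cannot be told apart. Without the 2 transcripts that run into an intron, an alternative chosen after seeing the data, the short share was 99.6% and 99.7%.

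**Figure D2:**
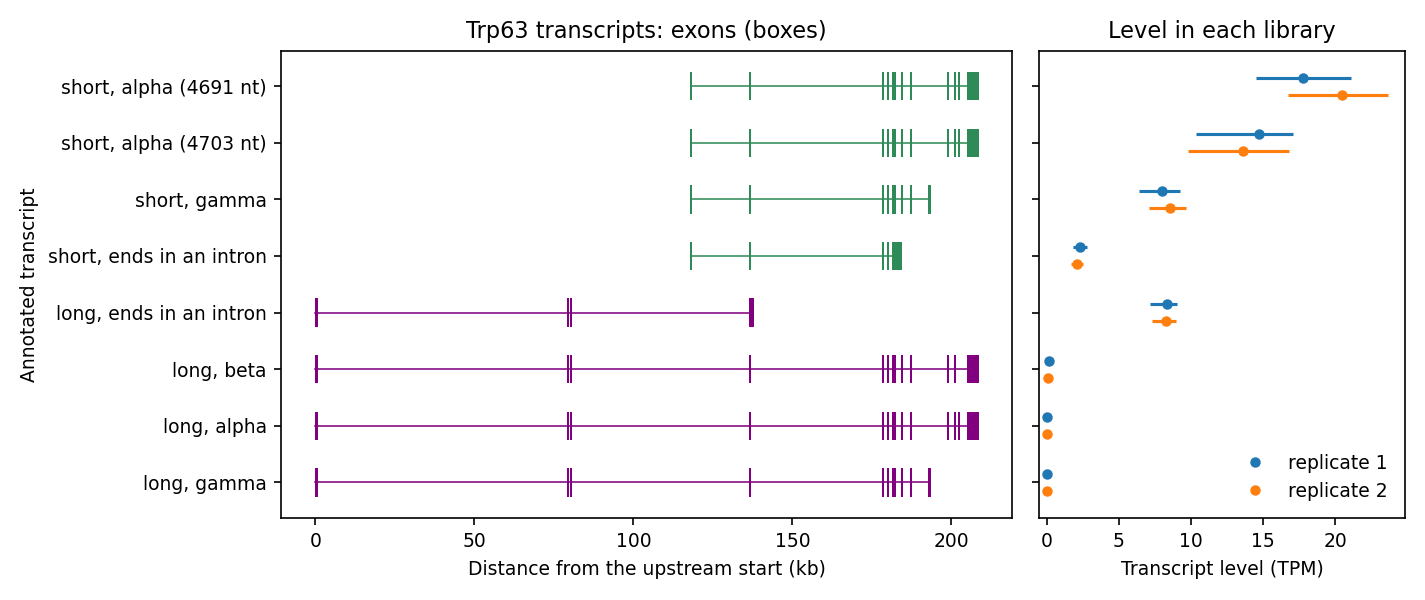
Left, exons of the 8 counted Trp63 transcripts (boxes, positions to scale, the thinnest drawn at line width) against distance from the upstream start in kb, short forms in green and long forms in purple. Right, TPM of each transcript in replicate 1 (blue) and replicate 2 (orange) with the deposited interval as a line. The long form is carried by the transcript that ends in an intron (8.31 and 8.26 TPM), and the other long forms lie at 0.150 TPM or less.

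Grhl1 was divided between its starts in one ratio in both pools. The upstream-start transcript had 20.9 and 21.9 TPM (62.7% in each library), and the internal-start transcript had 12.4 and 13.0 TPM (37.3% in each). The split rests on few bases: 35 bases of the internal-start transcript occur in no other counted transcript, against 434 of the upstream one. The deposited intervals reflect that, at 9.48 to 14.8 TPM for the internal start in replicate 1 and 10.5 to 15.8 in replicate 2, and they stayed below those of the upstream start.

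Tfap2a came mostly from the transcript whose start is printed first above. It had 7.08 and 8.50 TPM (87.2% and 87.4%), and the upstream-start transcript had 1.04 and 1.23 TPM. Both were higher in replicate 2, and the division between them was nearly the same in both pools. The Grhl2 reads were spread over more models. The full-length coding transcript had 5.13 and 5.17 TPM (61.8% and 63.6%) and a noncoding one had 1.92 and 1.79 TPM (23.1% and 22.0%). The main Klf4 transcript took 97.5% and 99.8%, and Klf5, Grhl3, Ovol1 and Zfp750 were counted with 1 transcript each.

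The RefSeq promoter table (GRCm38.p6) held 6 promoters of 4 of the factors: Klf4, Grhl3, and 2 each of Grhl1 and Tfap2a. Each window runs from 250 bases before the start to 50 after it. Neither Tfap2a window covers the start of the main counted Tfap2a transcript, at chr13:40730443 in GENCODE M21, and both lie upstream of it. The 2 Grhl1 promoters are printed because both starts were used in the estimate and their sequences are unlike. Only the 250 bases before each start are shown, on the plus strand, and the capitals mark a match to the AP-2 motif GCCNNNGGC.
Grhl1 upstream promoter, chr12:24572037-24572286: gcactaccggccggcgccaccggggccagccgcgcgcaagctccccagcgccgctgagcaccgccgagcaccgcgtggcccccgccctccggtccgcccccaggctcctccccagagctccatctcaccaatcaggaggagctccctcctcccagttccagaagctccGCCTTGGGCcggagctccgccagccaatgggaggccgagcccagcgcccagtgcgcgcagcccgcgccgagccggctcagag
Grhl1 internal promoter, chr12:24580469-24580718: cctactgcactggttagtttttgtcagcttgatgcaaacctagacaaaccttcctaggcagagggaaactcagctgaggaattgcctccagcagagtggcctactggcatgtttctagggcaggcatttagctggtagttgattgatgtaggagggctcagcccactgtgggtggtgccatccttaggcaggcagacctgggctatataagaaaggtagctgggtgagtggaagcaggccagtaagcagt

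The upstream window of Grhl1 had 75.3% G and C and an observed over expected CpG ratio of 0.865. The internal window had 51.3% and no CpG at all, and the median of 32544 promoters was 53% G and C. Motifs were searched on both strands. The AP-2 motif GCCNNNGGC occurred once in the upstream Grhl1 window, beginning at position -82 from the start, and once in that of Klf4, at -9. It occurred in 16.7% of all promoters. The Klf motif CACCC occurred 3 times in the Grhl3 window, 2 times in the internal Grhl1 window and once in each Tfap2a window, and in 57.7% of all promoters.

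The E-box CAGGTG, which the Zeb and Snai repressors bind, occurred 2 times in the Grhl3 window, at position -19 and again just after the start, and in 20.3% of all promoters. A match is a match of letters and not a measured binding site. The grainyhead motif AACCGGTT and its core ACCGGT, which lies inside it, were in none of the 6 windows, and in 0.147% and 2.33% of all promoters. TATAAA (13.6% of promoters) and the p53-family half-site (8.36%) had no match in the 6 windows either. A missing match says only that these letters are not in this window.

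Each factor was then set beside its gene family. In the p53 family, the tumour suppressor Trp53 had 113 and 108 TPM, above Trp63. Trp73 had 3.31 and 2.76 TPM, and Trp63 exceeded it 15.1-fold and 18.6-fold. In the grainyhead family the CP2 branch was in the same range: Ubp1 had 21.7 and 22.2 TPM and Tfcp2 15.2 and 15.1, both above Grhl2, while Tfcp2l1 had 0.440 and 0.460 TPM. So Grhl3 and Grhl1 were the highest of the 6 in both libraries.

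By TPM over its counted length Klf5 was the highest of 17 Klf genes in both libraries, and over the M21 length it fell below Klf6, Klf3, Klf10 and Klf4. By mean TPM Klf6 followed with 52.4 and 45.8 TPM, then Klf3 with 47.9 and 46.9 and Klf10 with 46.0 and 43.6, so Klf4 was the fifth. At the other end Klf17 had 0 counts in both libraries. The family therefore held other members near the level of Klf5 and Klf4. In both libraries 10 of the 17 had at least 10 TPM, as did 59.2% of genes with a mean of at least 1 TPM.

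Ovol1 stood far above its paralogues. Ovol2, a repressor known for keeping epithelial identity, had 1.34 and 1.91 TPM, and Ovol3 had 0.350 and 0.170 TPM. Ovol1 exceeded Ovol2 16.7-fold in replicate 1 and 11.3-fold in replicate 2 (mean log2 ratio 3.78 ± 0.40, SD, n = 2).

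The AP-2 family had the opposite layout, with Tfap2a below 2 relatives. Tfap2b had 50.1 and 47.2 TPM and Tfap2c, an early partner of p63 in the skin, had 17.2 and 16.6 TPM. Tfap2b exceeded Tfap2a by a mean of 5.42-fold (log2 of Tfap2a over Tfap2b -2.44 ± 0.24, SD, n = 2). Tfap2c exceeded it by a mean of 1.89-fold (log2 -0.92 ± 0.22, SD, n = 2). Tfap2e had 0.410 and 0.440 TPM, and Tfap2d had 0 counts in both libraries.

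**Figure D3:**
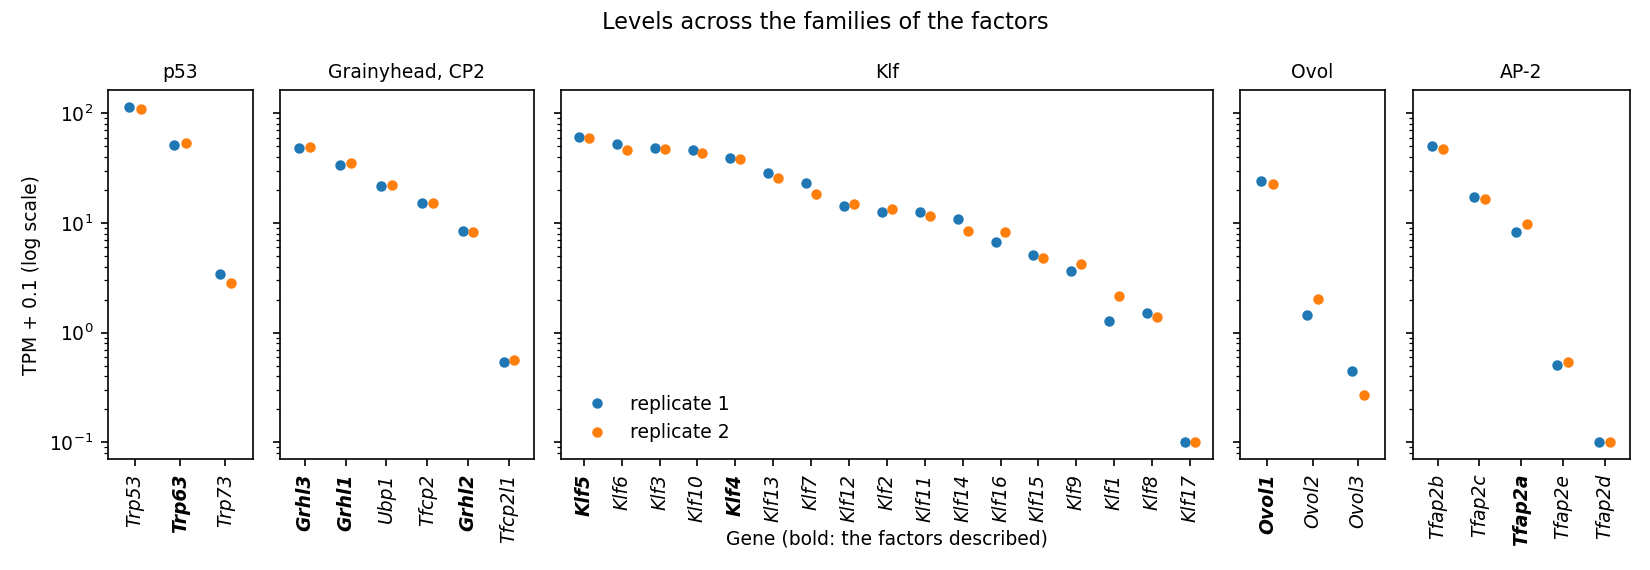
TPM + 0.1 on a log axis for every gene of the p53, grainyhead and CP2, Klf, Ovol and AP-2 families in replicate 1 (blue) and replicate 2 (orange), the described factors in bold. Klf5 heads 17 Klf genes by TPM over its counted length of 1721 nt, but not over 3352 nt, Grhl3 and Grhl1 head their family, Ovol1 stands 16.7-fold and 11.3-fold above Ovol2, and Tfap2a lies below Tfap2b and Tfap2c.

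Other epidermal and epithelial factors spanned a wider range than the 9. Of 23 listed, 10 had at least 10 TPM in both libraries, against the 59.2% of genes given above. The median of the 23 was 6.97 TPM in replicate 1 and 6.83 in replicate 2, against 33.4 and 34.9 for the 9. Tfap2b led. Gata3, a factor of skin and hair lineages, had 32.8 and 34.2 TPM, and Bnc1, a basal zinc finger gene, was the lowest with 0.650 and 0.890 TPM.

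Transcripts for proteins that work with the factors or remove them were all detected. Of these 11 genes, 9 were at 10 TPM or more in both libraries, against the 59.2% of genes given above. Ctbp1, a corepressor that several Klf repressors recruit, had 199 and 196 TPM. Lmo4, a LIM adaptor that works with Grhl3, had 60.0 TPM in replicate 1 and 84.3 in replicate 2. Itch, a ubiquitin ligase that degrades p63, had 43.6 and 44.8 TPM, and Wwp1, another such ligase, was the lowest with 8.46 and 9.31 TPM.

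Of the known p63 targets, 13 of 16 were at 10 TPM or more in both libraries, against the 59.2% of genes given above. The basal keratin Krt14 had 1102 and 1029 TPM, the desmosomal gene Perp 795 and 779, and the basal keratin Krt5 711 and 753. Fras1, a basement membrane gene, was the lowest with 4.93 and 5.30 TPM. Of 9 known grainyhead targets, 8 passed that level. Rab25 had 126 and 119 TPM, E-cadherin (Cdh1) 56.9 and 64.0, and the splicing regulator Esrp2 48.6 and 47.9, while Ovol2 was the lowest. These lists name genes that the factors are known to act on, and the tables hold no binding data.

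Markers of the basal, spinous and granular layers and of the periderm were found. Among 10 basal markers, Krt14, Krt15 (1062 and 999 TPM) and Krt5 were the highest and the laminin chain Lama3 (6.34 and 6.56 TPM) the lowest. Among 7 spinous markers, Krtdap (2760 and 3091 TPM), Krt1 (988 and 864 TPM) and Krt10 (484 and 454 TPM) led, and the desmocollin Dsc1 (3.04 and 3.39 TPM) was the lowest.

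Among 9 granular markers, Lor, the main protein of the cornified envelope, had 285 and 243 TPM. Hrnr had 43.3 and 36.4 TPM and the crosslinking enzyme Tgm1 40.0 and 38.7. Flg, the filaggrin gene of mature granular cells, had 0.0400 and 0.0100 TPM. Among 7 markers of periderm and simple epithelium, Krt4 (521 and 459 TPM), Krt19 (372 and 347 TPM) and Krt6a (248 and 259 TPM) were the highest and Cldn6 (5.61 and 7.56 TPM) the lowest. Linings that a limb should not hold were near 0: 5 markers of gut, lung and olfactory epithelium each had a mean of 0.255 TPM or less.

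Of 9 markers shared by all epithelia, 7 had at least 10 TPM in both libraries, against the 59.2% of genes given above. Rab25, Cdh1 and Esrp2 were the highest and the claudin gene Cldn7 the lowest (6.83 and 10.8 TPM).

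Several of the 9 genes are also known from cells other than keratinocytes, and those cells' markers were present. For Klf4 the other cells considered here are endothelium, smooth muscle and macrophages. The 7 endothelial markers summed to 266 TPM in replicate 1 and 229 in replicate 2, with Egfl7 (103 and 88.7 TPM), Pecam1 (46.1 and 36.4) and Cdh5 (31.0 and 25.8) highest and Tek lowest (13.4 and 12.0). The 7 mural and smooth muscle markers, which bear on Klf5 as well, summed to 572 and 328 TPM. Acta2 (301 and 199 TPM), Des (192 and 61.5) and Pdgfrb (40.6 and 38.8) were highest and Myh11 lowest (2.43 and 1.56). Acta2 and Des carried most of that sum, and what part of it came from skeletal muscle was not tested. The 6 macrophage markers summed to 295 and 245 TPM, with Lyz2 (126 and 102 TPM), C1qb (70.4 and 62.2) and C1qa (45.4 and 38.0) highest and Adgre1 lowest (7.66 and 7.54).

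For Tfap2a the other cells considered here are neural crest derivatives. The 6 Schwann and neural crest markers summed to 75.6 and 61.3 TPM, with Ngfr (38.2 and 28.0) and Erbb3 (17.6 and 16.8) highest and Foxd3 lowest (0.600 and 0.870). The 6 melanocyte markers summed to 20.2 and 13.5 TPM, with Pmel (7.57 and 4.98), Dct (6.45 and 3.65) and Mitf (2.89 and 2.11) highest and Tyr lowest (0.600 and 0.500). None of the markers in these 5 lists had 0 counts in both libraries. What part of the Klf4, Klf5 or Tfap2a level comes from such cells, or from limb tissues not listed, was not tested. The mesenchymal repressors of epithelial genes were present as well. All 7 listed were at 10 TPM or more in both libraries, against the 59.2% of genes given above. Prrx1 (86.3 and 94.2 TPM), Twist2 (56.0 and 58.6) and Snai2 (58.7 and 55.8) were the highest and Twist1 (23.8 and 36.2) the lowest.

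The 9 factors lay close together in the 2 pools. The difference is log2 of replicate 2 over replicate 1 on TPM + 0.1, less the median over 15571 genes with a mean of at least 1 TPM, and it describes 2 libraries only. None of the 9 (0 of 9) was over 1.5-fold apart. Of all tested genes 8.00% were, and of the 7242 genes whose mean TPM lay in the range of the 9, 3.13% were, so a count of 0 among 9 is near the background. The deposited intervals failed to overlap for 1 of 9, Tfap2a, where they failed for 23.2% of all tested genes. The median size of the difference, without its sign, was 0.0569 for the 9 and 0.110 for the genes in their range.

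Tfap2a was the exception in size, at 0.28 (1.22-fold), higher in replicate 2. The sizes of the other 8 were 0.09 or less. Trp63 (0.08) and Grhl1 (0.09) were higher in replicate 2, and Zfp750 (-0.07) and Ovol1 (-0.06) were higher in replicate 1, and these 4 and Tfap2a kept their direction under all 8 distinct ways of computing the difference. Grhl3 (0.05) was higher in replicate 2 under 7 of 8. Klf4, Klf5 and Grhl2 lay within 0.01 of 0, and their direction depended on the scaling.

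With the main centring the factors had a median of -0.0008, and every marker list with tested genes had a median further from 0. That order depends on the scaling. Over 6 scalings the factors' median ran from -0.067 to 0.055 and the basal median from -0.060 to 0.096. Among the marker lists the granular, endothelial, mural, neural crest, melanocyte and macrophage medians lay furthest from 0. Of 7 granular markers tested, 6 were lower in replicate 2, with a median log2 difference of -0.23, or from -0.30 to -0.20 over 6 scalings. The basal list had a median of 0.01, the spinous list -0.04, the periderm list 0.08 and the pan-epithelial list 0.07. The neural crest and melanocyte lists had medians of -0.42 and -0.49, beside Tfap2a at 0.28. These lists were not uniform: in the neural crest list Sox10, named after its values were seen, had 3.34 and 4.22 TPM and Foxd3 0.600 and 0.870, both higher in replicate 2 as Tfap2a was. Foxd3 had a mean under 1 TPM and is not part of the list's median. The endothelial, mural and macrophage lists had medians of -0.19, -0.46 and -0.23, beside Klf4 at 0.00 and Klf5 at -0.01. The part of cell makeup in any of these values was not tested.

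The families and target lists were near the background of 8.00% over all tested genes and 3.13% in the range of the 9. Among 22 other epidermal factors tested, 0 were over 1.5-fold apart, and the same holds for 11 partners, 16 p63 targets and 9 grainyhead targets. Among the Klf genes 1 of 16 tested was over 1.5-fold apart, Klf1 with 1.19 and 2.07 TPM, an erythroid factor.

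**Figure D4:**
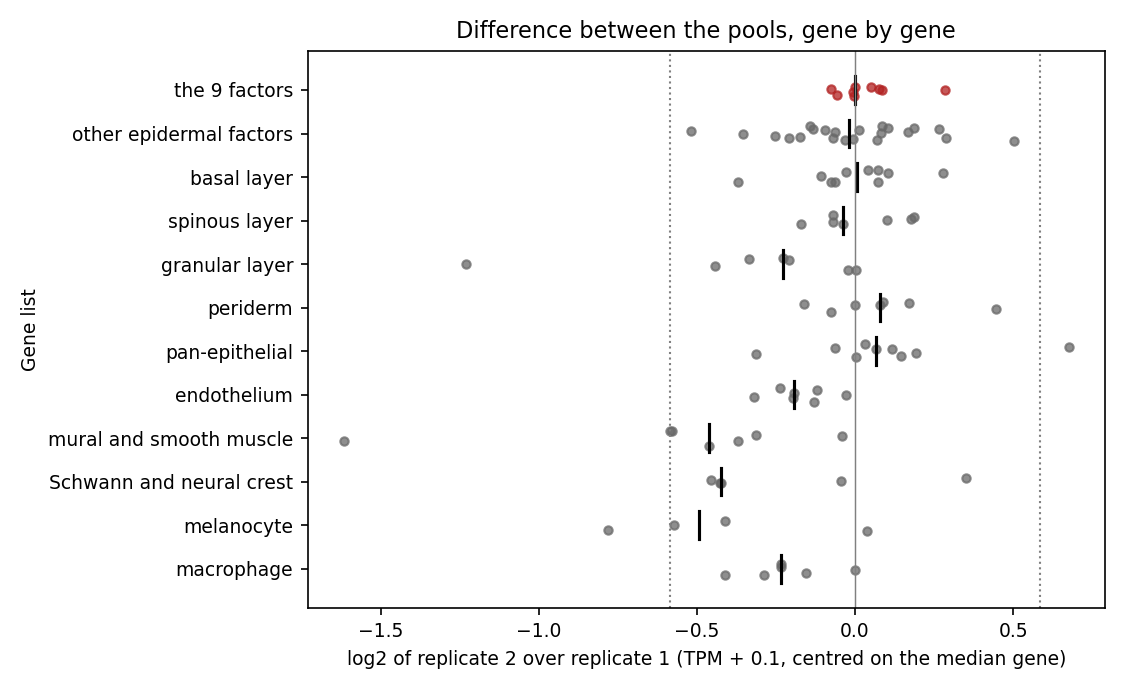
Each point is 1 gene with a mean of at least 1 TPM, placed by its centred log2 difference (replicate 2 over replicate 1, TPM + 0.1), the 9 factors in red, other lists in grey. Black bars are list medians and dotted lines mark 1.5-fold. The 9 factors lie between -0.07 and 0.28, and the granular, mural, neural crest and melanocyte medians lie left of 0, at -0.23, -0.46, -0.42 and -0.49.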

How the data were processed

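For each library the authors deposited a gene table and a transcript table on mm10 (the same build as GRCm38) with GENCODE M4, per the deposited sample records. The columns are laid out as RSEM writes them, and the program is not given in the sources used here, nor is the aligner. The deposited expected counts are estimated reads, shared among the features they match. TPM was scaled by the authors for length and to one total over all rows. The deposited lower and upper bounds of each TPM value, read as signal, cover counting and read assignment, not differences between pools. The deposited percent column is the share of a gene's TPM in 1 transcript.

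Symbols, coordinates and transcript models came from GENCODE M21, matched on gene identifiers, and 42462 of 43346 mouse rows had a symbol. Spike-ins took 2.28% and 2.26% of counts. A gene with 0 counts could have had up to 3, or 0.0855 and 0.0718 CPM, for counting error only. Amplification from 10 ng adds noise that depth does not show.

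The members and the 22 gene lists were chosen with earlier results of these data known. Named were all 9 members, the 3 highest and the lowest gene of every other list by mean TPM, the genes of the ratios and the paralogues. A few genes that this rule selects are not reported here. Other steps were the pool difference (pseudocount 0.1, mean TPM of at least 1, call at 1.5-fold), 10 ratios and motif searches (no protein comparison was made). Code for the pool difference and for its TMM scaling was tested on simulated data, and that for the other steps was not. Alternatives were other pseudocounts, no filter, no centring, TMM and spike-in scaling of counts, posterior mean TPM, protein-coding scaling and each library alone. Python 3.11.15, numpy 2.4.6, pandas 2.3.3 and, for TMM, edgeR 4.0.16 in R 4.3.3 were used.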

Additional observations from a re-analysis of the deposited data

How the results depend on the processing

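Scaled over protein-coding genes, Klf5 had 71.5 TPM, Trp63 62.4, Grhl3 58.0, Klf4 46.5, Grhl1 40.8, Zfp750 38.2, Ovol1 27.9, Tfap2a 10.7 and Grhl2 9.83. The same Klf5 counts over its GENCODE M21 length gave 29.8 TPM, an alternative chosen after seeing the data. As posterior mean TPM, Klf5 had 58.4, Grhl3 47.3, Klf4 38.3 and Grhl2 8.50.

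The short share of Trp63 was 92.2% by expected counts and 99.7% without the transcripts that run into an intron. Of 60 alternatives to the 10 log2 ratios, 59 kept the sign. By counts not divided by length Klf5 over Klf4 was -0.22, the 1 that reversed. The same setting gave Grhl2 over Grhl1 -1.73, Grhl3 over Grhl1 0.25, Grhl3 over Grhl2 1.98, Trp63 over Zfp750 0.90, Ovol1 over Ovol2 4.93, Tfap2a over Tfap2b -1.90, Trp63 over Trp73 3.73 and Klf4 over Zfp750 0.17. A pseudocount of 1 gave Grhl2 over Grhl1 -1.93, Grhl3 over Grhl2 2.42, Klf5 over Klf4 0.61, Ovol1 over Ovol2 3.22 and Trp63 over Trp73 3.72. Posterior mean TPM gave Grhl2 over Grhl1 -1.96, Grhl3 over Grhl2 2.46 and Klf5 over Klf4 0.61. Apart from the length and the left-out transcripts, which act by construction, the cause was not tested.

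Over 8 distinct ways of computing the difference between the pools, from 3 to 7 of the 9 factors were higher in replicate 2, and 0 of 9 were over 1.5-fold apart in each. No filter on low values gave the same values as no centring. One of the ways, centring on the pan-epithelial list, was chosen after seeing the data. A pool is 1 sample, and 2 pools give no test of a difference. No paired analysis was possible because there was only 1 group.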
